A study of Mus musculus with 11 samples.

Results

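Cytosolic ribosomal proteins are the protein parts of the ribosomes that translate messenger RNA in the cytoplasm. Their genes were taken as the protein-coding rows whose symbols follow the Rpl and Rps numbering, together with Rplp0, Rplp1, Rplp2 and Rpsa. Of 31936 genes in the table, 81 met this rule, and 77 of these were among the 12969 genes tested, which are those with a log2 CPM of -1 or more in 5 or more libraries. CPM expresses a gene's reads relative to its library's total. The 77 tested genes comprised 46 of the large subunit (Rpl) and 31 of the small subunit (Rps). Rpl10l, Rpl23a, Rpl6l and Rpl3l fell below the filter and were not tested.

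The RNA came from peritoneal macrophages of female mice, elicited with thioglycollate, an irritant broth that draws inflammatory macrophages into the abdominal cavity. The mimic group, replicates 1 to 6, had received a miR-150 mimic, which is a small synthetic duplex that stands in for the mature microRNA. The control group had received a negative control and holds replicates 1, 2, 3, 4 and 6, because the submitters omitted 1 sample that was improperly fragmented. The sources used here do not give strain, age, length of exposure or the animal or culture behind each replicate, so every p-value reflects only how far these samples differ among themselves, and that spread may be technical. The libraries held 20313901 to 25473814 reads in the mimic group and 18538509 to 22668862 reads in the control group.

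A ribosome needs its proteins in equal numbers, and their genes are widely active in growing and resting cells. Many vertebrate messages of this family begin with a C followed by a run of pyrimidines, the 5′ terminal oligopyrimidine (TOP) tract, through which mTORC1 and the RNA-binding protein Larp1 control their translation. The short, abundant messages have also given rise to many processed pseudogenes, copies inserted elsewhere in the genome, which are nearly identical in sequence to the parent gene.

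The start regions of the named genes include annotated starts with and without a pyrimidine run. Only a run at the annotated start itself is marked. A start shown without one therefore does not mean that the message lacks a TOP tract. Each line gives 30 bases 5′ to 3′ on the gene's strand, 10 before the RefSeq start of transcription and 20 from it on (GRCm38.p6). Capitals mark the unbroken pyrimidine run that includes the first transcribed base, and lower case alone means that the first base is a purine. The first 3 genes have a C and a run of at least 5 pyrimidines from the start and were lower with the mimic. The next 3 have such a run and were not called, and the last 3 lack one at the start shown and were lower.
Rpl35, chr2:39005112-39005141, minus strand: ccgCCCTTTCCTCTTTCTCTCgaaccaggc
Rplp2, chr7:141447641-141447670, plus strand: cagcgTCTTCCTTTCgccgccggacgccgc
Rps21, chr2:180257369-180257398, plus strand: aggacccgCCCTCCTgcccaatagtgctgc
Rps6, chr4:86857348-86857377, minus strand: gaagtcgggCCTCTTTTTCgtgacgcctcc
Rpl38, chr11:114668570-114668599, plus strand: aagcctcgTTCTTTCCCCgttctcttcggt
Rpl28, chr7:4792955-4792984, plus strand: tctcgtgTCTCTCTTTCCgtctccggccgc
Rps7, chr12:28635934-28635963, minus strand: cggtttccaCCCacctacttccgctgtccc
Rpl37a, chr1:72711250-72711279, plus strand: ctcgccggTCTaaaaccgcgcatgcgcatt
Rps25, chr9:44407704-44407733, plus strand: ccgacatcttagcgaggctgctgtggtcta

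Ribosomal protein messages were lower in macrophages with the mimic. By limma's moderated test with Benjamini-Hochberg adjustment over all genes and a threshold of 0.05, 46 of the 77 genes were lower and 1 was higher, while 30 were not called. Over all 12969 genes tested, 14.6% were lower and 15.4% were higher. The median log2 fold change of the 77 genes was -0.30, against 0.00071 over all genes tested. Single genes ranged from -0.86 for Rpl32 to 0.24 for Rpl5, and 70 of the 77 values were negative. Without mimic replicates 3, 4 and 6, the libraries farthest from the controls, 11 genes were lower and 0 higher (30 lower and 1 higher at an unadjusted p under 0.05), with a median of -0.18 and 6.83% of all genes lower. They included Rpl13a, Rpl14, Rpl29, Rpl3, Rpl4, Rpl8, Rps16, Rps2, Rps26 and Rps9.

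**Figure D1:**
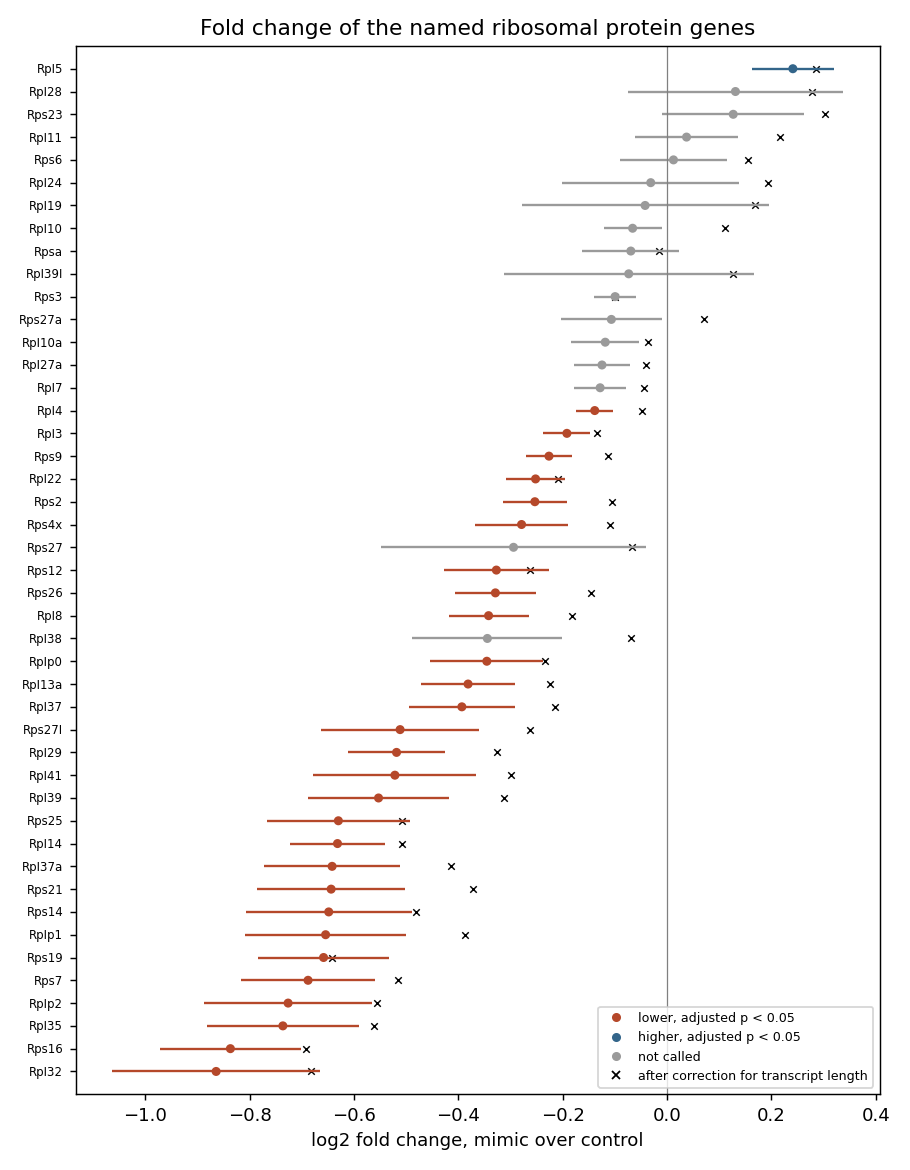
Log2 fold change (mimic over control, horizontal axis) of the tested ribosomal protein genes that the text names, one per row, with bars of 1 standard error and colours for the call. Rpl32 and Rps16 lie lowest, Rpl5 is the only gene called higher, and crosses give the value after correction for transcript length.

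The fall was carried by 5 of the 6 mimic libraries. In mimic replicates 1 to 6 the median gene deviated from the control mean by -0.0097, -0.34, -0.39, -0.50, -0.23 and -0.37 on the log2 scale, against values between -0.029 and 0.046 in the 5 control libraries. Mimic replicate 1 thus sat at the control level, with 40 of 77 genes below the control mean, whereas 66 to 69 were below it in the other mimic libraries. All 81 genes of the rule, the 4 untested ones included, took 0.623%, 0.508%, 0.461%, 0.441%, 0.519% and 0.452% of the reads of mimic replicates 1 to 6. In the controls they took 0.642% to 0.669%. The shares of the groups did not overlap, although that of mimic replicate 1 lay just under the lowest control. By subunit, the 50 large-subunit genes of the rule took 0.256% to 0.360% of reads in mimic libraries and 0.371% to 0.386% in controls. The 31 small-subunit genes took 0.185% to 0.263% in mimic libraries and 0.272% to 0.283% in controls.

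**Figure D2:**
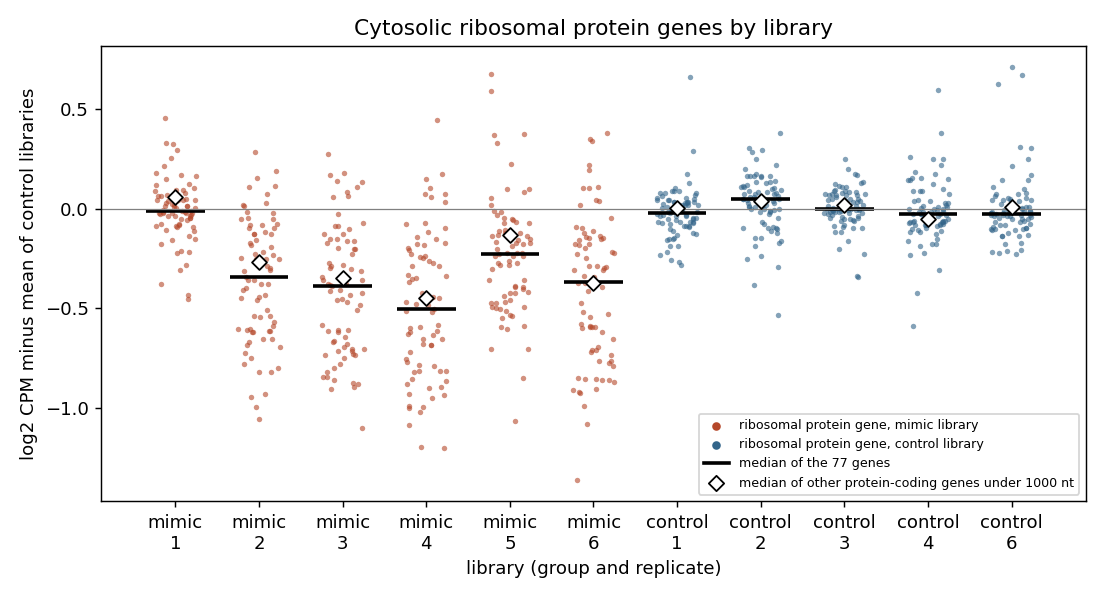
Deviation of each of the 77 genes from the mean of the control libraries (log2 CPM, vertical axis) in the 11 libraries, mimic left of control, with black lines at the median of the genes. The median stands at -0.0097 in mimic replicate 1 and between -0.50 and -0.23 in mimic replicates 2 to 6, and white diamonds, the median of other short protein-coding genes, lie lower in mimic replicates 2 to 6 as well.

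The order of single libraries shows the same split. All 6 mimic libraries lay below all 5 controls for 10 of the 77 genes, or 13%, where 6.04% of all genes tested did so, and above all controls for 0 of the 77, where 8.89% of all genes did so. For a further 36 genes (46.8%, against 5.96% of all genes tested) mimic replicates 2 to 6 lay below every control and mimic replicate 1 did not. Without mimic replicate 1, 53 genes were lower and 1 was higher, with a median of -0.37 and 19.3% of all genes lower.

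Transcript length moved with these results. Ribosomal protein messages are short, with a median of 681 nt for the main coding transcript. Short messages of other kinds were lower in the same libraries. Other protein-coding genes whose longest transcript is under 1000 nt deviated from the control mean by a median of 0.060 in mimic replicate 1 and by -0.45 to -0.13 in mimic replicates 2 to 6, against -0.053 to 0.038 in controls. Histone genes, whose messages are typically short, were taken as the tested genes with symbols that begin with Hist. They had medians of 0.019 in mimic replicate 1 and -1.38 to -0.58 in mimic replicates 2 to 6, against -0.17 to 0.10 in controls. Across 12933 genes the log2 fold change had a Spearman correlation of 0.25 with the length of the longest annotated transcript, as a description of these libraries. The part of length in the fall was not tested beyond the values that follow.

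Within classes set by the longest annotated transcript the ribosomal protein genes were lower more often than the rest, as a count and with no test. For some of them that transcript is far longer than the main coding one, as for Rps19 (2657 against 633 nt). The longer classes therefore do not compare messages of equal length. Under 1000 nt, 19 of 33 ribosomal protein genes were lower, at a median of -0.39 (log2 fold change), beside 195 of 442 other protein-coding genes with a median of -0.26. From 1000 to under 1500 nt, 16 of 21 were lower with a median of -0.32, beside 209 of 787 others with a median of -0.13. From 1500 to under 2500 nt, 5 of 14 were lower and 1 was higher with a median of -0.13, beside 420 lower of 2226 others with a median of -0.053. From 2500 to under 4000 nt, 4 of 7 were lower with a median of -0.30, beside 505 of 3675 others with a median of -0.00076. Both genes of 4000 nt or more were lower, at a median of -0.48, beside 403 of 4537 others with a median of 0.061. A correction of each library for transcript length also used the longest annotated transcript. Rps19 was thus treated as 2657 nt, and went from -0.66 to -0.64. After this correction 42 of the 77 genes were lower and 1 was higher, with a median of -0.18, where 14.9% of all genes were lower. For Rpl8, Rpl13a, Rpl37a, Rpl39, Rpl41, Rplp1, Rps9 and Rps21 the log2 fold change was then smaller by over 1.5 times, at -0.41 to -0.11, with the call kept. Rpl4, Rps4x and Rps27l were among the genes no longer called. With that correction and without mimic replicates 3, 4 and 6 together, 14 were lower, with a median of -0.13 and 7.89% of all genes lower.

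**Figure D3:**
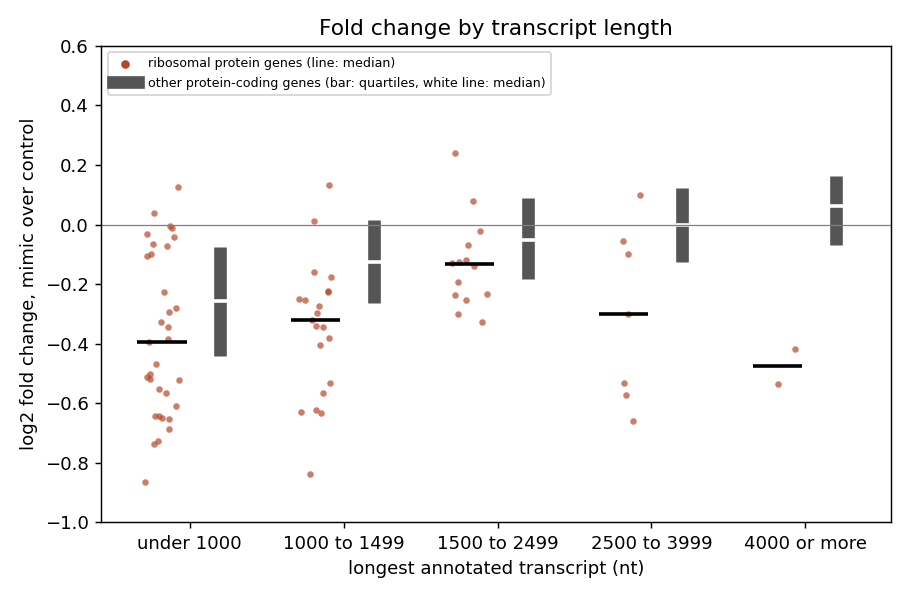
Log2 fold change (mimic over control, vertical axis) by the length of the longest annotated transcript, with a point per ribosomal protein gene and a black line at their median, beside bars for the quartiles of other protein-coding genes. In the shortest class the medians are -0.39 for ribosomal protein genes and -0.26 for the others, and in the next class they are -0.32 and -0.13.

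Among the large-subunit proteins, the stalk proteins fell together. Rplp0, Rplp1 and Rplp2 form the flexible stalk that recruits translation factors to the ribosome. The log2 CPM of Rplp1 was 7.39 at the lowest, 7.77 at the median and 8.43 at the highest in mimic libraries, the highest being replicate 1, against 8.49, 8.54, 8.53, 8.37 and 8.46 in controls. Mimic replicate 1 lay within the control range and the other 5 mimic libraries lay under it. The log2 fold change of Rplp1 was -0.65 (limma adjusted p = 0.0101, SE 0.155). Rplp2 stood at 4.94, 5.37 and 6.05 (lowest, median and highest log2 CPM) in mimic libraries, against 6.17, 6.16, 6.18, 6.17 and 6.00 in controls, a log2 fold change of -0.73 (limma adjusted p = 0.00693, SE 0.161). Rplp0, often used as a reference gene in quantitative PCR, fell less, with means of 8.37 ± 0.27 in mimic libraries and 8.72 ± 0.07 in controls (SD, n = 6 and 5) and a log2 fold change of -0.35. Its adjusted p of 0.0304 in limma was under 0.05 in each omission of 1 library except those of mimic replicates 3, 4 and 6 and control replicates 1, 2, 3 and 6, where it was 0.0506 to 0.0707.

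Rpl32 had the largest fall of all 77 genes. It encodes a large-subunit protein absent from bacterial ribosomes and lies at chr6:115805505-115808747 on the minus strand (GRCm38, GENCODE M21 annotation). Its log2 CPM was 6.03, 6.19 and 7.27 (lowest, median and highest) in mimic libraries, against 7.20, 7.37, 7.31, 7.11 and 7.15 in controls. Mimic replicate 1, at 7.27, stood among the controls, and the other 5 lay between 6.03 and 6.38, below all of them. The log2 fold change was -0.86 (limma adjusted p = 0.00999, SE 0.199), or 1.82-fold lower, and -0.60 (adjusted p = 0.167) without mimic replicates 3, 4 and 6. Rpl35, at the exit of the peptide tunnel, had 4.58, 4.67 and 5.48 in mimic libraries (lowest, median and highest log2 CPM), against 5.42, 5.77, 5.48, 5.51 and 5.68 in controls, a log2 fold change of -0.74 (limma adjusted p = 0.00339, SE 0.146). Rpl37a, a zinc-binding protein of the large subunit, had a log2 fold change of -0.64 (limma adjusted p = 0.00352), with mimic replicate 1 at 5.31 within the controls and the other 5 mimic libraries below them. Rpl41, the smallest ribosomal protein, and the X-linked Rpl39 fell by 0.52 and 0.55 on the log2 scale, with limma adjusted p of 0.0276 and 0.00912. For Rpl41 mimic replicate 1 was above every control, and its adjusted p lay between 0.053 and 0.0767 without mimic replicate 3, 4 or 6 or control replicate 2 or 3.

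In some large-subunit genes mimic replicate 1 also lay below the controls. Rpl8, a core protein near the peptidyl transferase centre, had 8.52, 8.78 and 9.07 (lowest, median and highest log2 CPM) in mimic libraries, against 9.13, 9.13, 9.11, 9.09 and 9.12 in controls. The groups did not overlap, and the log2 fold change was -0.34 (limma adjusted p = 0.00474, SE 0.0766). Rpl13a, known in human and mouse macrophages for a second role off the ribosome in silencing inflammatory messages, had 7.30, 7.53 and 7.92 in mimic libraries (lowest, median and highest log2 CPM), against 7.97, 7.93, 7.92, 7.94 and 7.93 in controls. Its log2 fold change was -0.38 (limma adjusted p = 0.00715, SE 0.0903). The groups did not overlap either, but mimic replicate 1, at 7.915, lay only just under the lowest control, at 7.923. In contrast, Rpl22, whose paralog Rpl22l1 is described further on, fell by 0.25 on the log2 scale (limma adjusted p = 0.00446), with mimic replicate 1 at 7.16 inside the control range of 7.10 to 7.19 and the other 5 mimic libraries at 6.80 to 6.91.

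Rpl5 was the exception that rose. Together with Rpl11 and the 5S ribosomal RNA it forms a particle that joins the large subunit and that, when unassembled, binds and inhibits Mdm2. Its log2 CPM was 3.06, 3.25 and 3.44 (lowest, median and highest) in mimic libraries, against 2.91, 3.13, 3.04, 2.91 and 2.98 in controls. The groups overlapped, with 4 of 6 mimic libraries above every control. The log2 fold change was 0.24 (limma adjusted p = 0.0295, SE 0.078), and the adjusted p was 0.0583 to 0.0709 without mimic replicate 4 or 6 or control replicate 1, 4 or 6. Its partner Rpl11 was at 1.91 ± 0.12 in mimic libraries and 1.88 ± 0.18 in controls (mean log2 CPM ± SD, n = 6 and 5), a log2 fold change of 0.037 with an adjusted p of 0.796 in limma. Every 50-base word of the coding sequences of both genes also occurs in another annotated gene, so their values are uncertain where the counting could split such reads.

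Other large-subunit genes were not called. Rpl10, a late-joining X-linked protein, had a log2 fold change of -0.066 (limma adjusted p = 0.389). Rpl38, required in mouse embryos for the translation of some Hox messages, had 0.14, 0.56 and 0.70 (lowest, median and highest log2 CPM) in mimic libraries, against 0.97, 1.06, 0.91, 0.54 and 0.73 in controls, a log2 fold change of -0.34 (limma adjusted p = 0.0791). Rpl19, Rpl24 and Rpl28 had mean log2 CPM of 0.00815, 0.12 and 0.40 in mimic libraries, against 0.0501, 0.15 and 0.27 in controls, and SE of 0.237, 0.17 and 0.206 on their log2 fold changes. Rpl39l, a paralog of Rpl39 known from the testis, was the lowest tested gene per length, and its groups overlapped. The paralogs Rpl3l, known from heart and skeletal muscle, and Rpl10l, known from the testis, were not tested. The log2 CPM of Rpl3l lay between -2.42 and -1.52 in mimic libraries, with a median of -1.78 in controls.

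Among the small-subunit proteins, 21 of 31 genes were lower and 0 were higher (also 0 at an unadjusted p under 0.05 and with voom), with a median log2 fold change of -0.33, while 25 of 46 large-subunit genes were lower and 1 was higher with a median of -0.29. The difference between the subunits was not tested. Rps16, a protein of the decoding side of the small subunit, had 1.38, 1.96 and 2.31 (lowest, median and highest log2 CPM) in mimic libraries, against 2.48, 2.76, 2.85, 2.96 and 2.66 in controls. All 6 mimic libraries lay under all controls, and the log2 fold change was -0.84 (limma adjusted p = 0.000309, SE 0.134). It was -0.70 without mimic replicates 3, 4 and 6. Its level was low, and every 50-base word of its coding sequence was found in another annotated gene. Rps7, which can bind Mdm2, had 4.36, 4.54 and 5.20 in mimic libraries (lowest, median and highest log2 CPM), against 5.31, 5.26, 5.45, 5.39 and 5.38 in controls, with no overlap and a log2 fold change of -0.69 (limma adjusted p = 0.00195, SE 0.128).

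Genes linked to human marrow failure were among the falls. Rps19, mutated in Diamond-Blackfan anaemia in humans, had a log2 CPM of 4.84 to 5.07 in mimic replicates 2 to 6 and 5.74 in mimic replicate 1, against 5.66, 5.84, 5.85, 5.72 and 5.81 in controls. Mimic replicate 1 lay inside the control range, and the log2 fold change was -0.66 (limma adjusted p = 0.00241, SE 0.126). Rps14, lost in the human 5q deletion syndrome, had 7.22, 7.47 and 8.26 in mimic libraries (lowest, median and highest log2 CPM), against 8.27, 8.21, 8.13, 8.18 and 8.29 in controls, a log2 fold change of -0.65 (limma adjusted p = 0.0121). Rps21 and Rps25, the second of which some viral internal ribosome entry sites need, fell by 0.64 and 0.63 on the log2 scale with limma adjusted p of 0.00654 and 0.00582. Without mimic replicates 3, 4 and 6, limma's adjusted p for Rps7, Rps19, Rps14, Rps21 and Rps25 lay between 0.0697 and 0.178.

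Abundant small-subunit messages included Rps9 and Rps3. Rps9, at the entry of the message channel, had 7.84, 7.95 and 8.09 in mimic libraries (lowest, median and highest log2 CPM), against 8.20, 8.17, 8.19, 8.15 and 8.17 in controls, with no overlap and a log2 fold change of -0.23 (limma adjusted p = 0.0018, SE 0.0449). Rps3, which also acts in DNA repair, was at 8.76 ± 0.06 in mimic libraries and 8.86 ± 0.05 in controls (mean log2 CPM ± SD, n = 6 and 5), a log2 fold change of -0.10 with a limma adjusted p of 0.0706. After correction for transcript length its adjusted p was 0.0392 at the same log2 fold change.

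Rps6, the target of the S6 kinases downstream of mTORC1, had 1.59, 1.66 and 1.81 (lowest, median and highest log2 CPM) in mimic libraries, against 1.64, 1.37, 1.83, 1.60 and 1.88 in controls. The groups overlapped fully, and the log2 fold change was 0.012 (limma adjusted p = 0.939, SE 0.103). Rpsa, also known as the laminin receptor, and Rps27a, made as a fusion with ubiquitin, had log2 fold changes of -0.069 and -0.11 with limma adjusted p of 0.596 and 0.424. The X-linked Rps4x fell by 0.28 on the log2 scale at an adjusted p of 0.03 in limma, a p that was 0.0507 to 0.0769 without mimic replicate 3, 4 or 6 or control replicate 1, 2, 3 or 4. After correction for transcript length Rps4x was at -0.11 with an adjusted p of 0.15 in limma. Of the paralog pair Rps27 and Rps27l, Rps27l, known as a p53 target, had 3.91, 4.07 and 4.90 (lowest, median and highest log2 CPM) in mimic libraries, against 4.53, 4.85, 4.80, 4.68 and 4.56 in controls. Mimic replicate 1 was above every control and the other 5 mimic libraries were below them, and the log2 fold change was -0.51 (limma adjusted p = 0.0233, and 0.0508 to 0.068 without mimic replicate 4 or 6 or control replicate 2). After correction for transcript length Rps27l was at -0.26 with an adjusted p of 0.0514 in limma. Rps27 was at -0.59 ± 0.42 in mimic libraries and -0.30 ± 0.49 in controls (mean log2 CPM ± SD, n = 6 and 5) and was not called.

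Measured levels differed widely between these genes. Per kilobase of transcript, Rplp1, Rpl8, Rps14 and Rps9 were among the highest, with 328 to 518 CPM per kb in mimic libraries and 385 to 715 in controls. The lowest were Rpl39l, Rps23, Rpl19, Rpl24 and Rpl28, with 1.04 to 1.76 CPM per kb in mimic libraries and 1.14 to 1.66 in controls. The level went with the share of the coding sequence held in common with other annotated genes, mostly pseudogenes. Across the 77 genes, all measured in the same libraries, the share of coding 50-base words found elsewhere had a Spearman correlation of -0.73 (Pearson -0.56) with the mean log2 CPM and of 0.53 (Pearson 0.27) with the log2 fold change. The sources used here do not say how the authors' counting treated reads that fit several genes, and the part of shared reads in these values was not tested.

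**Figure D4:**
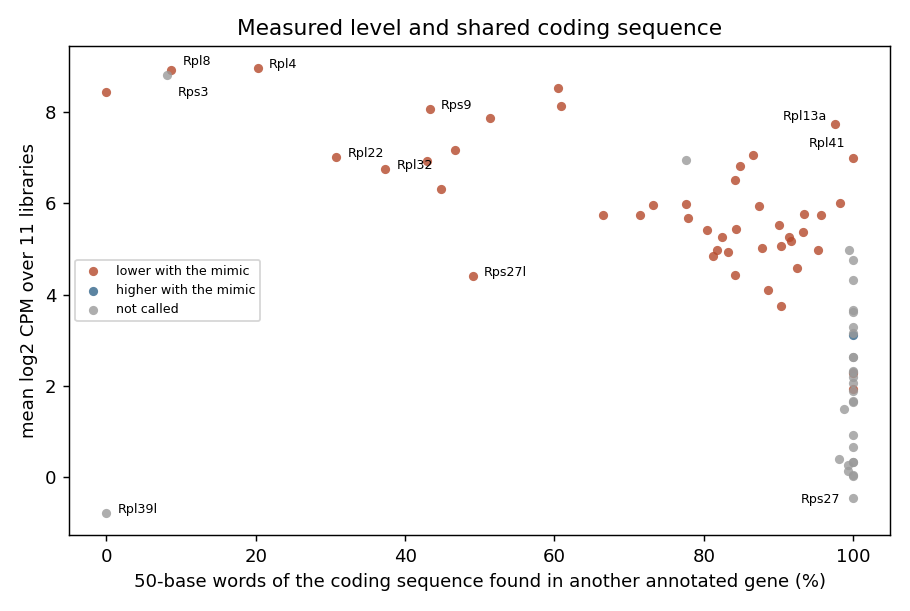
Mean log2 CPM over the 11 libraries (vertical axis) against the percent of 50-base words of the coding sequence that also occur in another annotated gene (horizontal axis), a point per gene, coloured by the call. Of the 26 genes with every word shared, at the right edge, 22 were not called, while 10 of the 12 genes with under 50% shared were lower.

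Calls followed the level. Above a mean log2 CPM of 4, a split chosen after the values were seen, 43 of 48 ribosomal protein genes were lower, at a median of -0.44 (log2 fold change), beside 17.6% of all genes at that level. The 5 exceptions, also named after their values were seen, were Rpl10, Rpl10a, Rpl27a, Rpl7 and Rps3, with log2 fold changes of -0.13 to -0.066. Below that level 3 of 29 were lower (Rpl29, Rps12 and Rps16) and 1 was higher, with a median of -0.073, beside 11.3% of all genes at that level. At least 98% of the coding 50-base words were shared in 27 of these 29 genes. Of the 12 genes with under 50% of words shared, 10 were lower, with a median of -0.40, and the other 2 were Rps3 and Rpl39l.

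Rows named as ribosomal protein pseudogenes, by an Rpl or Rps symbol with -ps, took few reads. The table holds 202 of them. Together they received 0.00225% to 0.00307% of reads in mimic libraries and 0.00310% to 0.00331% in controls, so the groups did not overlap. Pseudogenes under other names were not counted, so the share of reads on all ribosomal protein pseudogenes is not given. Of 15 rows with such a symbol that passed the filter, 4 were lower (26.7%, beside 14.6% of all genes tested) and 0 higher. At an unadjusted p under 0.05 in limma 7 were lower and 0 higher, and with voom 8 were lower and 0 higher. Their median log2 fold change was -0.48. After correction for transcript length 1 was lower, with a median of -0.23, and without mimic replicates 3, 4 and 6 also 1, with a median of -0.18. The gene Rps4l, labelled a transcribed pseudogene in the table and therefore no member of the 77, had a log2 fold change of -0.17 (limma adjusted p = 0.225). Introns of ribosomal protein genes carry many small nucleolar RNAs, which guide the modification of ribosomal RNA. Of 56 annotated on the same strand within 29 of these genes, 10 in 6 host genes passed the filter. By limma 0 of the 10 were called (2 lower and 0 higher at an unadjusted p under 0.05, and 1 lower with voom). Their median log2 fold change was 0.054, and the lowest, -0.80, belonged to Gm26448 in Rpsa (limma adjusted p = 0.0645). The host genes Rps12 and Rpl37 were lower while the RNAs in their introns were not called.

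Sequence features at the start, which the selection did not use, were also compared. RefSeq start regions were at hand for 60 genes with 72 starts. A start with C as its first base and an unbroken run of at least 5 pyrimidines stood at 13 of the 72 (18.1%), against 2.47% of the 32779 starts of other genes. Of the 13 genes with such a start, 8 were lower, at a median of -0.50 (log2 fold change), and of the 45 tested genes without one, 26 were lower and 1 was higher with a median of -0.25. This split rests on the exact annotated base, whose accuracy was not tested. Rps21, for example, has RefSeq starts with runs of 5 and of 1. The 2 groups are therefore not genes with and without TOP tracts. Rpl35, Rplp2 and Rps21, shown above with a run, fell, and so did Rps7, Rpl37a and Rps25, shown without one. Rps6, with a run of 9, did not pass the test. The motif CCGGAAG, the core of many binding sites of the ETS family of transcription factors, was searched on both strands of the 300 bases around each start and was present in 26 of 72 (36.1%), against 8.80% of other starts. Its reverse complement begins with 5 pyrimidines and can therefore overlap a run. Of the 25 genes with the motif, 16 were lower (median -0.39), and of the 33 tested genes without it, 18 were lower and 1 higher (median -0.25). These matches are descriptions of letters, not of binding.

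Ribosomal proteins whose symbols lie outside the rule were also lower. Of 7 such genes 6 were lower and 0 higher (1 higher at an unadjusted p under 0.05), and the median log2 fold change was -0.34. Over all genes tested 14.6% were lower and 15.4% higher. Fau, made as a fusion with a ubiquitin-like protein, had 1.59, 1.86 and 1.91 (lowest, median and highest log2 CPM) in mimic libraries, against 2.18, 2.25, 2.34, 2.17 and 2.32 in controls, a log2 fold change of -0.42 (limma adjusted p = 0.0022). Here mimic replicate 1, at 1.86, was among the low libraries and the groups did not overlap. Rack1, a signalling scaffold on the small subunit, fell by 0.34 on the log2 scale (adjusted p = 0.0149 in limma). Rps3a1 and Rpl36al fell by 0.25 and 0.20, with limma adjusted p of 0.00446 and 0.0444. Rpl22l1, the paralog that can replace Rpl22, fell by 0.64 (limma adjusted p = 0.005), so both of the pair were lower. Rpl7l1, a nucleolar relative of Rpl7, had a log2 fold change of 0.084 (limma adjusted p = 0.11) and passed after correction for transcript length (0.0269), under which 3 of the 7 genes were lower and 1 was higher. Fau, Rps3a1 and Rpl36al were then at -0.21, -0.084 and -0.081 and were not called (limma adjusted p = 0.116, 0.191 and 0.268).

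Other genes of translation differed by list. Of 18 elongation and initiation factors and other messages with TOP tracts, 7 were lower and 1 was higher, and their median was -0.098 on the log2 scale. These are 38.9% lower and 5.56% higher, beside 14.6% and 15.4% of all genes tested. The initiation factor subunit Eif3f fell by 0.37 on the log2 scale, and the elongation factors Eef1b2 and Eef2 by 0.35 and 0.26, with limma adjusted p of 0.000407, 0.000498 and 0.00272. For these 3 genes, named for their small p, all mimic libraries, replicate 1 included, lay under all controls. In the whole list 4 of 18 did so, beside 6.04% of all genes tested. Hnrnpa1, an RNA-binding protein, rose by 0.26 (limma adjusted p = 0.0403). With mimic replicate 4 or 6 or control replicate 1, 2 or 4 left out singly 4 of the 18 were lower, and without mimic replicates 3, 4 and 6 together 3 were.

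Factors that assemble ribosomes were more often higher than lower. Of 42 ribosome biogenesis factors, 12 rose and 2 fell, and the median log2 fold change was 0.11. These are 28.6% higher and 4.76% lower, beside 15.4% and 14.6% of all genes tested. Wdr43, of the early small-subunit particle, had means of 6.24 ± 0.14 in mimic libraries and 5.92 ± 0.04 in controls (log2 CPM ± SD, n = 6 and 5), a log2 fold change of 0.31 (limma adjusted p = 0.0013). Tcof1, a nucleolar protein that promotes transcription of ribosomal RNA, rose by 0.29 (limma adjusted p = 0.0015). Both genes, named for their small p, were higher in all 6 mimic libraries than in every control. In the whole list 5 of 42 were, beside 8.89% of all genes tested. Nop10, a small protein of the H/ACA particles, fell by 0.88 (limma adjusted p = 0.00571), with mimic replicate 1 outside the fall. The count of higher genes was 20 without mimic replicate 1, also 20 with voom, and 2 without mimic replicates 3, 4 and 6. Over all 12969 genes tested, 2693, 2961 and 1214 were higher in these settings. In the last of them the median of the 42 was 0.045.

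The RNA polymerase I list, whose enzyme makes ribosomal RNA, had 4 of 19 genes higher and 4 lower (median log2 fold change -0.078). Each count is 21.1% of the list, beside 15.4% higher and 14.6% lower of all genes tested. Polr2e, a subunit shared by all 3 nuclear polymerases, fell by 0.35 on the log2 scale, and Polr1a and Taf1d rose by 0.13 and 0.24, with adjusted p of 0.00167, 0.0133 and 0.0145 in limma. Polr1a was at 0.053 after correction for transcript length (adjusted p = 0.409 in limma). In the list of mTORC1 and TOP message control, 5 of 17 rose and 3 fell (29.4% and 17.6%, median 0.0087). Eif4e, which binds the message cap, rose by 0.23, while its inhibitor Eif4ebp2 and the mTORC1 inhibitor Akt1s1 fell by 0.26 and 0.35 (limma adjusted p = 0.00292, 0.0101 and 0.00688). In the list of ribosome stress, p53 and ribosome rescue, 5 of 18 rose and 3 fell (27.8% and 16.7%, median 0.053). The p53 targets Cdkn1a and Mdm2 rose by 0.47 and 0.36, the ribosome-splitting helicase Ascc3 rose by 0.57, and the rescue factor Pelo fell by 0.46 (limma adjusted p = 4.59e-05, 5.6e-05, 5.56e-06 and 6.04e-05). All 6 mimic libraries lay beyond all controls for these 4 genes, which were named for their small p. In the whole list 3 of 18 lay below all controls and 4 above, beside 6.04% and 8.89% of all genes tested. The polymerase I list had 7 genes lower without mimic replicate 1, 2 lower without mimic replicate 3, 4 or 6 or control replicate 2, 3 or 6 singly, and 1 called in each direction without mimic replicates 3, 4 and 6 together. The count of higher genes in the mTORC1 list was 1 without control replicate 2 or 4, 2 without mimic replicate 3 or control replicate 1 and 3 without mimic replicate 4 or 6 or control replicate 3 or 6. The stress list had 5 genes lower without mimic replicate 1.

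**Figure D5:**
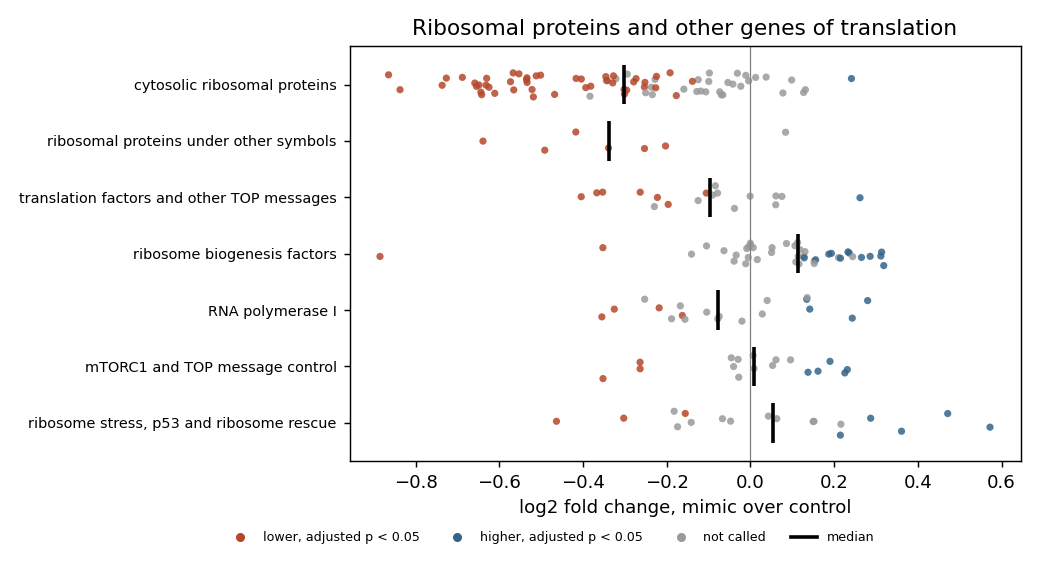
Log2 fold change (mimic over control, horizontal axis) of each tested gene in 7 lists, the ribosomal proteins at the top, coloured by the call, with a black line at the median of each list. The medians are -0.30 for the 77 ribosomal protein genes, -0.34 for those under other symbols and 0.11 for the biogenesis factors.

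The libraries carried the markers of macrophages, at 16796 to 21010 CPM summed over 10 genes in the mimic group and 18363 to 21220 in the control group, of which 3 were higher and 2 lower. Some markers of other cells moved with the groups. The B cell list summed to 151 to 168 CPM in mimic libraries and 177 to 183 in controls (2 of 3 tested lower, most of it Cd22), and the eosinophil list to 27.4 to 29.1 CPM in mimic libraries and 33.7 to 36.1 in controls, led by Siglecf. The neutrophil list had 9.58 to 16.2 CPM in mimic libraries, with replicate 1 highest, and 14.2 to 18 in controls. The T cell, mast cell, dendritic cell and mesothelial or fibroblast lists overlapped between the groups in their sums, although the 1 tested T cell marker and 1 of 3 tested dendritic cell markers were lower, as were 1 of 2 tested neutrophil markers and the 1 tested eosinophil marker. No listed marker was at 0 in every library. Their part in the ribosomal protein results was not tested, and in bulk RNA fewer cells of a type and less RNA per cell cannot be told apart. In the authors' deposited table, 45 of the 77 genes were lower at an adjusted p under 0.05 and 0 were higher, and 44 were lower both there and in the limma fit.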

How the data were processed

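RNA sequencing of 11 libraries was used, 6 mimic and 5 control, grouped by sample title. The submitters' processing notes name STAR, Subread, featureCounts and edgeR, and the sources used here give no version, build, annotation or strand setting. The authors deposited log2 CPM, whose steps show whole reads plus 0.5 divided by a library total that had been scaled. Reads came out whole in 100% of values, within 0.01 read or, for large counts, a tolerance that grew in proportion to the count. They served for totals, shares and other scalings. The authors' deposited comparison holds per gene a log2 fold change with limits, a p-value and an adjusted p-value, and score columns (signed fold, t and log odds) that were not used. The test behind it is not stated.

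The 12969 genes at a log2 CPM of -1 or more in 5 or more libraries entered limma 3.58.1 in R 4.3.3, with an intensity trend and robust empirical Bayes, Benjamini-Hochberg adjustment over all genes and a call at 0.05. The procedure was tested on simulated data. Lengths, shared 50-base words and host genes came from GENCODE M21 (GRCm38), matched by gene ID for 80 of the 81 genes, and start regions from RefSeq (GRCm38.p6), matched by symbol. Length-corrected fits removed a lowess trend (span 0.3) on the longest annotated transcript per library. Count models were not used, since the deposited unit is log2 CPM.

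The members, gene lists and the rule for named genes were chosen with earlier results of these data known. Named were the 10 largest falls and rises past the threshold, the 5 highest and 5 lowest per kb, a fixed set with known roles, and up to 3 called genes by smallest p in each other list. Alternatives covered scaling, filter, pseudocount, voom with sample weights, replicate block, each library left out, mimic replicates 3, 4 and 6 left out and length. The length correction combined with that omission was added after seeing the data. The main fit did not pair samples by replicate number, since the sources used here do not say whether same-numbered samples belong together. Results for a few genes are not reported here by name, and the counts and medians include them.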

Additional observations from a re-analysis of the deposited data

Results flagged for a closer look

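Dixon's criterion at 95% was applied to the named genes and the read share in each group of libraries, 116 groups in all, of which 11 held a value far from the rest, where chance gives about 1 in 20 groups. In 6 of the 11 the value was the highest of the mimic group and belonged to mimic replicate 1, in log2 CPM Rpl22 at 7.16 (next 6.91), Rpl32 at 7.27 (next 6.38), Rpl37a at 5.31 (next 4.75), Rps19 at 5.74 (next 5.07), Rps21 at 6.67 (next 6.05) and Rps27l at 4.90 (next 4.14). Fau was lowest in mimic replicate 3, at 1.59. Among controls, replicate 6 was lowest for Rplp2, at 6.00, and for Eif3f, at 6.19, and replicate 4 was lowest for Polr2e, at 5.24. The share of reads on the 81 ribosomal protein genes of the rule was highest in control replicate 2, at 0.669%.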

How the results depend on the processing

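Of the 77 genes, 31 to 53 were lower under every single alternative except the omission of mimic replicates 3, 4 and 6, where 11 were, and 14 with length correction added. The cause was not tested. The single rise was lost without a filter on low values, under the replicate block and in both of those omissions, leaving 0. Rpl5 also missed the threshold when mimic replicate 4 or 6 or control replicate 1, 4 or 6 was left out singly. Large-subunit genes lower numbered 15 without a filter, 6 without mimic replicates 3, 4 and 6 and 10 with length correction added, and small-subunit genes lower numbered 5 and 4 in those 2 omissions. Over all genes, 1214 were higher and 886 lower without mimic replicates 3, 4 and 6, and 1023 were lower with length correction added. With each library left out in turn, 39 to 53 of the 77 were lower and 0 to 1 higher, large-subunit genes lower numbered 20 to 31 and higher 0 to 1, small-subunit genes lower 19 to 22, all genes higher 1488 to 2693 and lower 1403 to 2506, and the median log2 fold change was -0.37 to -0.27. Genes near 0 changed sign, none of them called. Rpl10 was at 0.0026 without mimic replicates 3, 4 and 6, 0.11 with length correction and 0.082 with both, and Rpl24 at 0.084, 0.19 and 0.20. Rpl11 and Rps6 were at -0.029 and -0.028 in that omission. Length correction alone and with the omission gave 0.17 and 0.046 for Rpl19, 0.13 and 0.085 for Rpl39l, and 0.071 and 0.067 for Rps27a, and voom gave 0.037 for Rpl39l. With single libraries left out, Rpl11 ranged from -0.017 to 0.099, Rpl19 from -0.18 to 0.12, Rpl24 from -0.10 to 0.039, Rpl39l from -0.22 to 0.10 and Rps6 from -0.061 to 0.066. Same-numbered samples did not deviate together (correlations -0.061 to 0.062, 2 of 5 best matched to their own number); with the replicate block, which drops mimic replicate 5 for want of a partner, 45 genes were lower and Rpl24 was at 0.034. Low read numbers limit Rpl19, Rpl24, Rpl28, Rps27 and Rpl39l, whose SE were 0.17 to 0.254.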
